A study of Mus musculus with 12 samples.

Results

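The cytosolic ribosomal protein genes of mouse CD4+ T cells were described across 12 RNA-seq libraries in 4 groups of 3. Members were taken by gene symbol: symbols that begin with Rpl or Rps and a number, with at most a short suffix (a, x, l, al or l1), and Rplp0, Rplp1, Rplp2 and Rpsa. The rule found 87 of the 35492 symbols in the files, namely 51 Rpl, 3 Rplp and 33 Rps symbols. It used no measured value. Mitochondrial ribosomal proteins are not among them, and neither are Rack1, Fau, Rps3a1 or Rps27rt, which code for parts of the ribosome under symbols that the rule does not match.

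Tfh tumour libraries came from CD4+ CXCR5+ PD1+ cells sorted out of MC38 tumours, a transplantable colon carcinoma. Tfh OT-II libraries came from naive T cells of OT-II spleen and lymph nodes; OT-II mice carry a transgenic T cell receptor against an ovalbumin peptide. Tfh WT libraries came from naive T cells of wild-type spleen and lymph nodes. Both in vitro Tfh groups were cultured on plates coated with CD3 and CD28 antibodies with IL-6 (50 ng/ml) and IL-21 (50 ng/ml) and with blocking antibodies to IL-4, IFNγ and TGFβ (10 µg/ml each). Th1 WT libraries came from the same kind of wild-type cells with IL-12 (10 ng/ml) and blocking antibody to IL-4 (10 µg/ml). All mice were C57BL/6J and 7 weeks old, and RNA came from 300000 cells. The titles give 48 h for the OT-II cultures and 24 h for both WT cultures, while the labels' protocol gives 48 h for all cultures, so a difference between OT-II and WT cultures cannot be told apart from a difference in time. Tumour cells were sorted from tissue and had no culture, so origin and handling cannot be told apart either. Nothing in the labels says that the 3 libraries of a group came from separate animals or cultures, so p-values speak only for the scatter among libraries, part or all of which may be technical.

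A cytosolic ribosome holds most of its proteins as a single copy, with Rpl proteins in the large subunit, Rps proteins in the small subunit and Rplp0, Rplp1 and Rplp2 in the stalk that binds translation factors. Their mRNAs are short and abundant, and many begin with a cytosine followed by a run of pyrimidines, the 5′ terminal oligopyrimidine (TOP) tract, through which mTORC1 and LARP1 control their translation. Activated T cells make many new ribosomes before they divide. Some members have a paralogue that can take its place in the ribosome, and nearly all have processed pseudogenes, copies of the mRNA inserted elsewhere in the genome.

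The values were TPM, a transcript's share of all transcripts after correction for its length, so levels can be compared between genes. The files hold no counts, and sequencing depth is unknown. All 11 CD4 T cell markers were above 0 in every library, and their summed level was 2025 to 3507 TPM in Tfh tumour, 4272 to 4729 in Tfh OT-II, 2225 to 2702 in Tfh WT and 858 to 1867 in Th1 WT. The summed level of 12 macrophage and monocyte markers was 88.7 to 857 TPM in Tfh tumour libraries (highest in replicate 2), 15.2 to 38.1 TPM in Tfh OT-II, 26.1 to 36.0 TPM in Tfh WT and 8.78 to 11.2 TPM in Th1 WT libraries, and none of the 12 was at 0 in every library of a group. Sums of 6 B cell and 7 dendritic cell markers were 26.3 to 34.2 and 23.8 to 70.8 TPM in Tfh tumour, against at most 23.5 and 23.1 TPM in any other library. The Th1 WT libraries stood apart in their makeup. There, 19.5% to 41.4% of all symbols were listed at 0, against 14.5% to 17.98% in Tfh tumour, 9.92% to 23.9% in Tfh OT-II and 8.20% to 13.7% in Tfh WT. Symbols with a standard protein-coding name held 25.3% to 42.5% of TPM in Th1 WT, against 53.6% to 67.0% in Tfh tumour, 73.9% to 76.5% in Tfh OT-II and 62.1% to 68.5% in Tfh WT. For that reason each test is given on the values as deposited and again after median-of-ratios scaling, which sets the typical gene equal between libraries. A member is said to have risen or fallen where it passed both.

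A pyrimidine tract near the annotated start was more frequent among members than among all genes, though many of the members matched to a promoter had none there. RefSeq promoters (GRCm38.p6) matched 64 of the 87 members. A tract of C followed by at least 4 bases that are C or T, on the gene's own strand, began within 5 bases of the annotated start in 29 of the 64 (45.3%), against 18.5% of 27025 promoters of the same length. It began exactly at the start in 13 (20.3%), against 2.49%. The windows below, 15 bases before the start and 15 from it, are shown for members on which the results turn. Capitals mark the tract.
Rps6, chr4:86857353-86857382, minus strand: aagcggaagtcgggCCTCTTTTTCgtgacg
Rpl28, chr7:4792950-4792979, plus strand: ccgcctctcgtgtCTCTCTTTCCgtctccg
Rps18, chr17:33955651-33955680, minus strand: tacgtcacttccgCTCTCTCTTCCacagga
Rpl13a, chr7:45128731-45128760, minus strand: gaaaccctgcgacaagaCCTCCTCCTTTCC
Rpl22l1, chr3:28805493-28805522, plus strand: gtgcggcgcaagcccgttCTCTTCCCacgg
Rpl5, chr5:107900513-107900542, plus strand: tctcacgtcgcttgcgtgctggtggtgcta
Rpl22, chr4:152325711-152325740, plus strand: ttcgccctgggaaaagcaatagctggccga
No tract was found in the Rpl5 and Rpl22 windows, which says only that these letters are not within 5 bases of the annotated start.

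In all groups the members were among the most abundant transcripts, and the Tfh tumour and Th1 WT libraries gave them a smaller share of TPM than the Tfh OT-II and Tfh WT libraries did. The 87 members together held 7.69%, 6.06% and 5.91% of TPM in the Tfh tumour libraries. They held 12.4%, 12.8% and 13.3% in Tfh OT-II, 13.0%, 11.1% and 10.6% in Tfh WT, and 4.64%, 5.68% and 8.63% in Th1 WT. The tumour range lay below both in vitro Tfh ranges, and the Th1 WT range lay below the Tfh WT range. The means were 6.55% ± 0.99 in Tfh tumour, 12.8% ± 0.46 in Tfh OT-II, 11.6% ± 1.27 in Tfh WT and 6.32% ± 2.07 in Th1 WT (SD, n = 3 each). The sums were not tested; between 2 groups of 3 the smallest two-sided exact permutation p is 0.1. In bulk RNA, fewer cells with a high level and less RNA per cell cannot be told apart.

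The low Th1 WT share depended on what it was a share of. Of the TPM of 19669 standard protein-coding names, the members held 11.3% ± 2.75 in Tfh tumour, 17.0% ± 0.32 in Tfh OT-II, 17.8% ± 1.25 in Tfh WT and 18.3% ± 5.43 in Th1 WT (SD, n = 3 each). On this scale the Th1 WT libraries lay at 12.1%, 22.4% and 20.3%, on both sides of Tfh WT at 19.0%, 17.8% and 16.5%. The tumour libraries lay at 14.3%, 9.05% and 10.4%, still below every in vitro Tfh library.

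**Figure D1:**
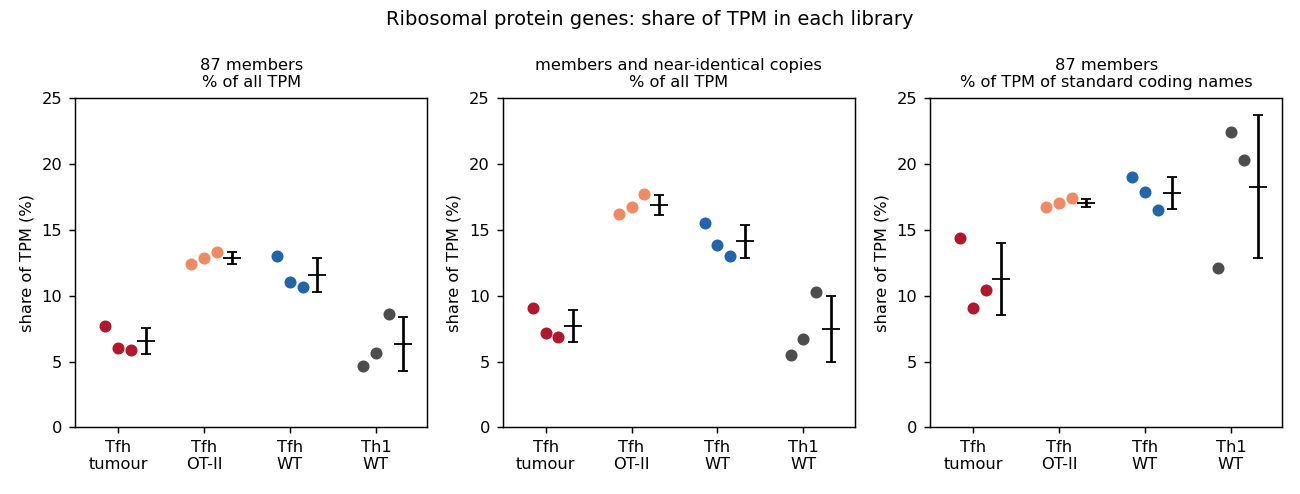
Share of TPM (%) held by the ribosomal protein genes in each library (points; replicates 1 to 3 from left to right) with mean and SD (n = 3) for 4 groups: of all TPM, of all TPM with near-identical copies added, and of the TPM of standard protein-coding names. Tfh tumour means are 6.55%, 7.69% and 11.3% in the 3 panels, while Th1 WT is at 6.32%, 7.50% and 18.3%.

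The leading members were nearly the same in every group. Rpl13a was the most abundant member in all 4, at 3306 ± 461 TPM in Tfh tumour, 8768 ± 451 in Tfh OT-II, 7069 ± 528 in Tfh WT and 2053 ± 1125 in Th1 WT (SD, n = 3 each). Rpl13a is a large-subunit protein that also has a known role in translational silencing outside the ribosome. Rpl26, Rpl23a and Rpsa followed it over the 12 libraries, with means of 3264, 2983 and 3074 TPM. Rpsa, the small-subunit protein also known as the laminin receptor precursor, had 2088, 1711 and 3270 TPM in Tfh tumour, against 4572, 3947 and 3862 TPM in Tfh WT. Averages reached 300 TPM in 74 of the 87 members. For 32 members the group means ran, high to low, Tfh OT-II, Tfh WT, Tfh tumour, Th1 WT, and for 22 Th1 WT lay above Tfh tumour in an otherwise equal order. The balance of the subunits moved with the groups: the summed TPM of Rpl and Rplp symbols over that of Rps symbols was 1.52 ± 0.07 in Tfh tumour, 1.89 ± 0.02 in Tfh OT-II, 1.71 ± 0.02 in Tfh WT and 1.27 ± 0.07 in Th1 WT (SD, n = 3 each), and no 2 groups overlapped. That ratio is of symbols as deposited and moves with the copies described below.

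Between Tfh tumour and Tfh OT-II cells 30 of 86 members fell and 0 rose. Of the 86 members tested, 37 were called lower and 0 higher in Tfh tumour as deposited, against 7.97% of all genes called higher and 7.29% called lower (limma, Benjamini-Hochberg adjusted p under 0.05). At an unadjusted p under 0.05 0 members were higher and 60 lower, against 15.6% and 13.5% of all genes. After median-of-ratios scaling 32 were lower (8.32% of all genes) and 0 higher (7.02%), and 30 were lower both ways (6.87% of all genes). The median log2 fold change of the members was -0.88 as deposited and -0.96 scaled, beside 0.06 and 0.01 over all 23308 genes. Ranges did not overlap for 69 members, 67 lower and 2 higher in Tfh tumour (18.2% and 16.8% of all genes). The 2 higher were Rpl10 and Rpl27, whose near-identical copies, described below, held 61.4% and 95.5% of the summed TPM of gene and copies in Tfh OT-II.

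Of the 30 that fell, 20 were unsuffixed large-subunit or stalk genes (of 46), 9 were small-subunit genes (of 30) and 1, Rpl32l, carried a suffix (of 10 tested). Rpl26, whose protein lies near the exit of the nascent chain and binds the p53 mRNA, had 2100, 1826 and 1383 TPM in Tfh tumour, against 5544, 5677 and 5923 TPM in Tfh OT-II. Rpl29, a large-subunit protein not needed for viability in mice, had 773, 585 and 605 TPM in Tfh tumour, against 1913, 1990 and 2098 TPM in Tfh OT-II. Every tumour library lay far below every OT-II library for both genes. The log2 fold change was -1.71 ± 0.32 for Rpl26 (SE, limma adjusted p = 0.00331, scaled 0.0077) and -1.62 ± 0.28 for Rpl29 (SE, limma adjusted p = 0.00232, scaled 0.00326).

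Rpl5, which with Rpl11 and 5S rRNA forms the particle that binds Mdm2, had 1042.5, 680 and 821 TPM in Tfh tumour, against 2171, 2415 and 2300 TPM in Tfh OT-II (log2 fold change -1.46 ± 0.26 SE, limma adjusted p = 0.00285, scaled 0.0043). The groups did not overlap. The partner Rpl11 had 533, 464 and 383 TPM, against 851, 814 and 860 TPM in Tfh OT-II, with a log2 fold change of -0.88 that did not pass (limma adjusted p = 0.121). Of the stalk genes, Rplp1 (-1.25 ± 0.31 SE) and Rplp2 (-1.24 ± 0.38 SE) fell, and Rplp0 at -0.94 ± 0.35 SE did not pass (limma adjusted p = 0.0906). Rpl23a (-1.45 ± 0.29 SE), Rpl13a (-1.41 ± 0.38 SE) and the small-subunit gene Rps18 (-1.37 ± 0.29 SE) also fell, with limma adjusted p of 0.00501, 0.0243 and 0.00748.

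How many members were called depended on single libraries and on the settings: the 37 became 24 with trimmed-mean scaling and 13 with no filter on low values. Leaving out tumour replicate 2 or 3 left 11 each as deposited, leaving out OT-II replicate 1, 2 or 3 left 17, 9 and 8, and leaving out tumour replicate 1 left 32. After scaling, 6 and 8 were left without tumour replicate 2 and 3, 28, 6 and 6 without OT-II replicate 1, 2 and 3, and 41 without tumour replicate 1. Among the 6 members called as deposited and scaled without any 1 of the 6 libraries were Rpl26, Rpl29, Rpl32l, Rpl5 and Rps18. As a share of standard protein-coding names alone, 1 of 83 members was higher and 6 lower (15.1% and 3.52% of 17701 names), with a median log2 fold change of -0.53. The macrophage, B cell and dendritic marker sums were also higher in Tfh tumour libraries than in Tfh OT-II, and the CD4 T cell sum was lower. Within the CD4 sum, Trac had 449, 854 and 473 TPM in Tfh tumour, against 1915, 2068 and 2032 TPM in the receptor-transgenic Tfh OT-II. Cd3e, Lck, Trbc1, Trbc2 and Trac were lower in every tumour library than in any Tfh OT-II library. Cd2, Cd3d, Cd3g, Cd4, Cd5 and Cd28 were not. The part of these marker differences in the member differences was not tested. Without tumour replicate 2, where the macrophage sum was highest, the median was -0.81. Tumour replicates 1 and 3 also had higher macrophage sums than any Tfh OT-II library. Replicate 1, with the lowest macrophage sum of the tumour libraries (88.7 TPM), had the largest member share of TPM among them (7.69%). Replicate 2, with the highest sum (857 TPM), had 6.06%. Replicate 3, with a sum between these, had the smallest share (5.91%), so the shares did not follow the order of the sums.

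**Figure D2:**
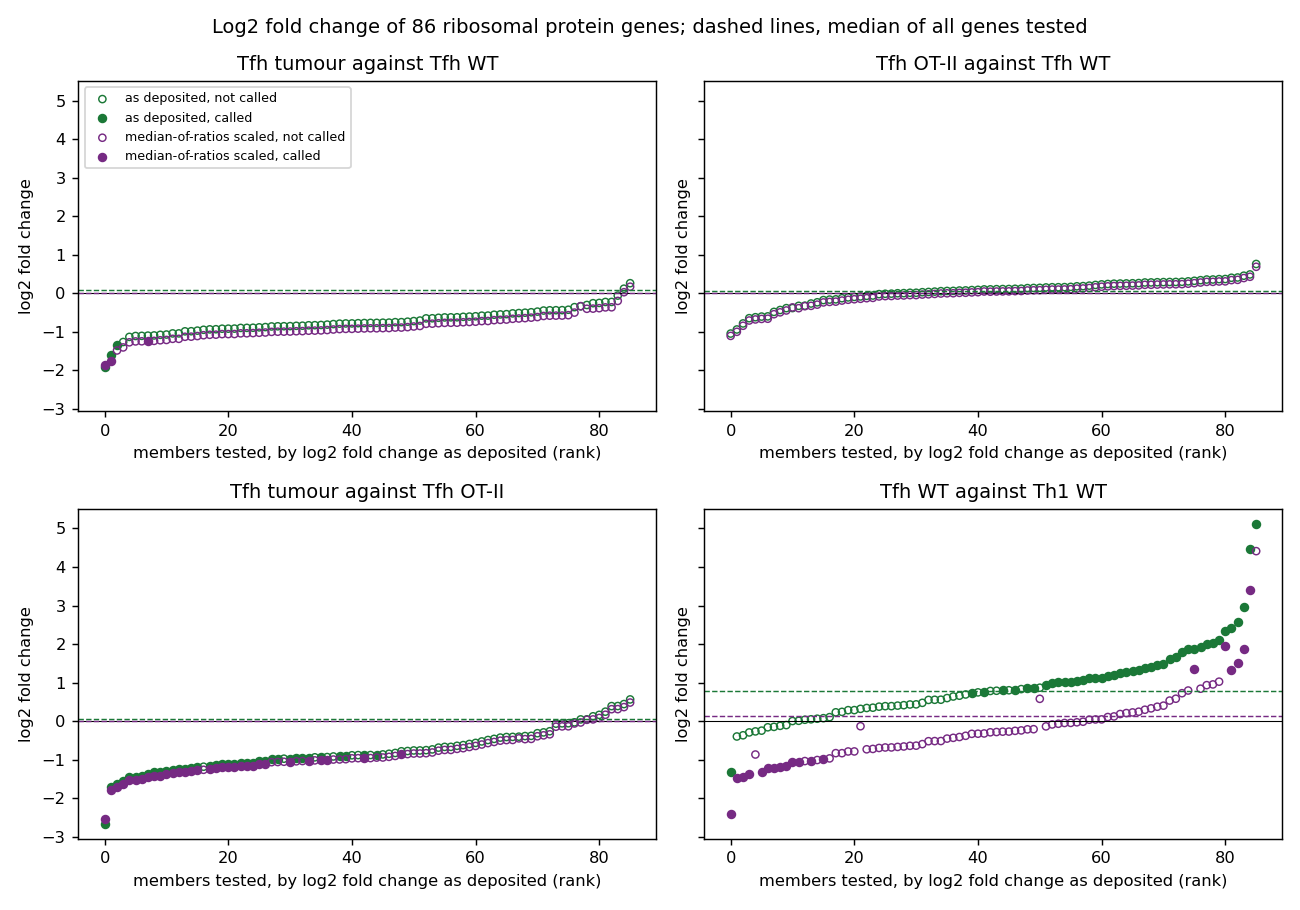
Log2 fold change (y) of the 86 ribosomal protein genes tested, in the order of the deposited value (x), for 4 comparisons; filled points were called at an adjusted p under 0.05, and dashed lines mark the median of all genes. Members lie below the gene median in both tumour comparisons (medians -0.77 and -0.88 as deposited), and the 2 colours separate in Tfh WT against Th1 WT, where 41 members are called higher as deposited and 6 after scaling.

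Against Tfh WT the tumour libraries had the same direction with few calls. Of 86 members, 0 were called higher and 3 lower in Tfh tumour as deposited, against 1.15% and 0.944% of all genes, and 0 and 3 after scaling (limma; 1.11% and 1.22%). At an unadjusted p under 0.05, 0 members were higher and 58 lower as deposited, against 8.28% and 5.74% of all genes. Both ways 2 were lower (0.875%). The median log2 fold change was -0.77 as deposited and -0.91 scaled, beside 0.10 and 0.00 over all genes. Tumour values lay below every WT value for 69 members and above for 0 (10.4% and 13.4% of all genes). This comparison and the one with OT-II share the tumour libraries.

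Rpl12 and Rpl32l fell both ways. Rpl12, which lies at the base of the stalk, had 105, 76.2 and 195 TPM in Tfh tumour, against 379, 331 and 360 TPM in Tfh WT (log2 fold change -1.61 ± 0.36 SE, limma adjusted p = 0.0404, scaled 0.0209). Rpl32l had 1.01, 0.520 and 0.865 TPM in Tfh tumour, against 5.94, 7.40 and 4.10 TPM in Tfh WT (-1.90 ± 0.35 SE on the log2(TPM + 1) scale, limma adjusted p = 0.0153, scaled 0.0426). Rpl32l is a processed pseudogene in GENCODE and was low in every group, with at most 12.1 TPM in any library. Neither call was kept without every library: leaving out 1 library gave 0 to 6 lower calls as deposited, with 6 without tumour replicate 1, 1 without tumour replicate 3 or WT replicate 3 and 0 without the others. After scaling, 9 were lower without tumour replicate 1, 1 without tumour replicate 3 and 0 without any of the others. Rpl26 passed as deposited (limma adjusted p = 0.0482) and not scaled (0.0675), and Rpl5 passed scaled (0.0481) and not as deposited (0.0512). Summed with copies, 2 were lower both ways (0.829%), Rpl32l, which has no copy, and Rpl41, whose copy Gm3699 is only 75 bases long. Rpl12 summed with its copies had -1.06 ± 0.26 SE (limma adjusted p = 0.0585).

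Tfh OT-II and Tfh WT cells did not differ past the threshold in any of the 86 members, as deposited or scaled (limma, 0 higher and 0 lower, against 0.987% and 1.39% of all genes as deposited, and 0.678% and 1.21% scaled). At an unadjusted p under 0.05, 1 member was higher and 5 lower (7.16% and 6.08% of all genes), and after trimmed-mean scaling 0 and 7 (4.44% and 7.21%), with 0 past the adjusted threshold either way. The median log2 fold change was 0.11, beside 0.05 over all genes. Values did not overlap for 26 members higher and 13 lower in Tfh OT-II (21% and 8.1% of all genes). Rps12, a small-subunit protein, had 521, 422 and 471 TPM in Tfh OT-II, against 1117, 885 and 920 TPM in Tfh WT (log2 fold change -1.04 ± 0.31 SE, limma adjusted p = 0.111). Summed with its copies, Rps12 differed by 0.02 ± 0.29 SE.

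Tfh WT against Th1 WT gave the widest spread among members. As deposited, 41 of 86 members were higher and 1 lower in Tfh WT, against 41.1% and 0.511% of all genes (limma), so the share of members higher was near that of all genes. After scaling 6 were higher and 13 lower, against 9.02% and 5.35% of all genes. The 13 became 2 without WT replicate 2 or 3 and 7 without Th1 replicate 2, and the 6 became 4 without WT replicate 2. The median log2 fold change was 0.78 as deposited, beside 0.78 over all genes, and -0.28 scaled, beside 0.14. Median-of-ratios scaling moved the median of all genes by -0.63 in this comparison, by -0.10 in Tfh tumour against Tfh WT and by less in the others. Both ways, Rpl5, Rpl10, Rpl12, Rps12, Rpl32l and Rpl6l were higher in Tfh WT and Rpl28 lower (9.02% and 0.506% of all genes). Without 1 library each in turn, Rpl5, Rpl10, Rpl12, Rpl6l and Rpl28 passed both ways every time, and scaled Rps12 passed in 3 of 6 and Rpl32l in 5 of 6. Ranges did not overlap for 48 members higher and 1 lower, against 55.6% and 0.738% of all genes.

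Rpl5 had the largest of these differences, with 1815, 1824 and 1724 TPM in Tfh WT, against 64.2, 73.5 and 108 TPM in Th1 WT (log2 fold change 4.47 ± 0.26 SE, limma adjusted p = 3.74e-07, scaled 3.40 and 2.9e-05). Rpl10, the large-subunit protein that joins the subunit late in its assembly, had 1562, 878 and 1239 TPM in Tfh WT, against 121, 186 and 160 TPM in Th1 WT (2.95 ± 0.27 SE, limma adjusted p = 1.22e-05, scaled 0.00312). Rps12 had 1117, 885 and 920 TPM in Tfh WT, against 112, 211 and 256 TPM in Th1 WT (2.40 ± 0.31 SE, limma adjusted p = 0.000111, scaled 0.0179). The groups were far apart for all 3 genes. Rpl12 had 379, 331 and 360 TPM in Tfh WT, against 46.3, 43.6 and 101 TPM in Th1 WT (2.57 ± 0.36 SE, limma adjusted p = 0.000199, scaled 0.0121). Rpl28 went the other way, with 276, 189 and 232 TPM in Tfh WT, against 527, 372 and 988 TPM in Th1 WT (-1.33 ± 0.34 SE, limma adjusted p = 0.00805, scaled 0.000644).

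For those members the deposited symbol is only a part of the sequence family. Of the files' symbols, 291 have at least 50% of their 31-base words in transcripts of a member (GENCODE M21), and 69 members have such a copy. Short reads from a stretch that both hold cannot be told apart, and how the authors' quantification shared them is not given in the sources used here. The first 60 coding bases of Rpl5 and Rpl10 (start codon in capitals, genes on the plus strand of chromosomes 5 and X) are printed because the copies Gm15500 and Rpl10-ps3 hold the same letters.
Rpl5 and Gm15500: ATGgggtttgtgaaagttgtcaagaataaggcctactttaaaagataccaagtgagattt
Rpl10 and Rpl10-ps3: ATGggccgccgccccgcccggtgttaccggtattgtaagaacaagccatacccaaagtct
Gm15500, a transcribed processed pseudogene at chr7:114705217-114706235 (minus strand, mm10), differed from the Rpl5 transcript at 1 of 1019 aligned bases and at 0 within the coding sequence. Rpl10-ps3, at chr9:50344201-50344968 (minus strand), had 0 mismatches over 740 aligned bases, and Rps12l1, itself a member, had 0 over 399 against Rps12. Rps6-ps4 (750 bases), Rps23-ps1 (425) and Gm3699 against Rpl41 (75) also had 0, and Gm10275 had 1 of 635 against Rpl12.

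Members and copies did not keep 1 ratio across groups or, for Rpl10, within a group. Rpl10-ps3 was listed at 0 or under 0.01 TPM in Tfh tumour libraries and had 952, 884 and 957 TPM in Tfh OT-II. It had 0, 493 and 22.0 TPM in the 3 Tfh WT libraries and 563, 755 and 678 TPM in Th1 WT. Thus replicates of 1 group differed from 0 to 493 TPM in the copy while Rpl10 with its 9 copies held 1424 ± 154 TPM there, and it held 878 ± 171 TPM in Th1 WT (SD, n = 3 each). Gm15500 had 3136, 2766 and 2503 TPM in Tfh WT, against 849, 1082 and 1834 TPM in Th1 WT, so in Th1 WT the copies took 93.7% of the Rpl5 family, against 61.1% in Tfh WT. The symbol Rps12l1 had 1844, 1746 and 1570 TPM in Tfh WT, against 125, 0.00178 and 950 TPM in Th1 WT, where the 3 libraries were far apart.

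**Figure D3:**
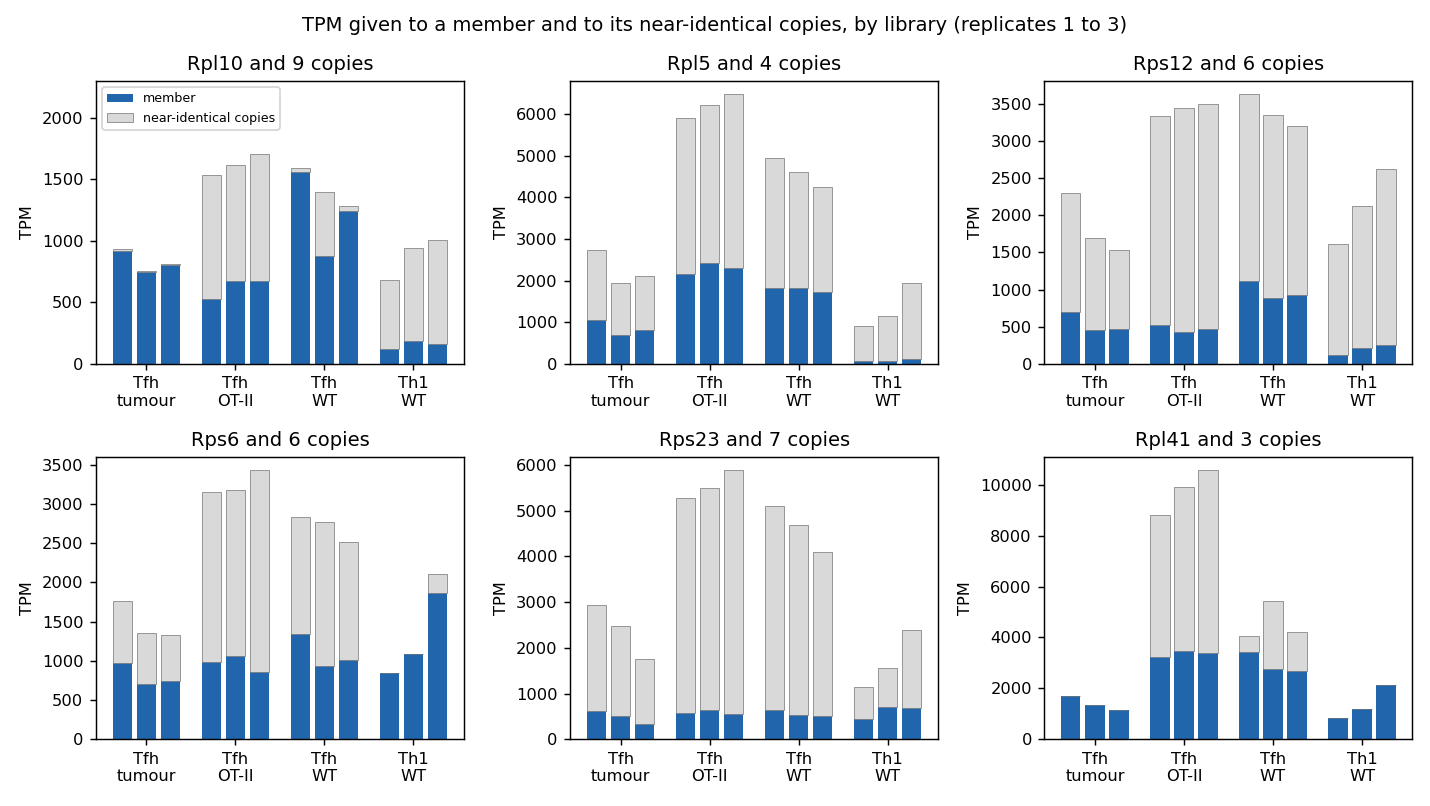
TPM (y) of 6 members (blue) and the sum of their near-identical copies (grey, stacked) in each library, for 4 groups with replicates 1 to 3 from left to right. The share of the copies differs between groups: for Rpl10 it is 1.51% in Tfh tumour, 61.4% in Tfh OT-II, 14.2% in Tfh WT and 82.2% in Th1 WT.

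Of the 7 members called both ways in Tfh WT against Th1 WT, only Rpl32l was called both ways among the sums. It has no copy, so its sum is its own value. Rpl6l was counted as a copy of Rpl6 and was not tested as a sum. Summed with their copies, Rpl5, Rpl10, Rpl12, Rps12 and Rpl28 were not called both ways. Of the 41 called higher as deposited, 36 were called higher as sums. Of 84 sums tested, 43 were higher and 0 lower in Tfh WT as deposited (40.7% and 0.482% of all genes, limma), 1 higher and 8 lower scaled (8.54% and 5.32%), and the 1 called both ways was Rpl32l (8.54%). The Rpl5 family had a log2 fold change of 1.85 ± 0.33 SE as deposited (limma adjusted p = 0.000842) and 0.78 ± 0.38 scaled (0.188). The Rpl10 family had 0.71 ± 0.25 SE (limma adjusted p = 0.0366) and -0.36 ± 0.31 scaled (0.466). The Rpl28 family had 0.06 ± 0.29 SE (limma adjusted p = 0.885) and -1.02 ± 0.30 scaled (0.038). These sums were added after the values were seen.

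In Tfh tumour against Tfh OT-II the sums went further in the direction of the members. As deposited 0 of 84 sums were higher and 49 lower (8.06% and 7.1% of all genes, limma), and both ways 43 were lower (6.71%). Of the 30 members that fell, 29 did so in sums too, Rpl9 being the exception at a limma adjusted p of 0.0505 as deposited. Members without a copy, such as Rpl22 and Rpl32l, are their own sums. Rpl41, which codes for a very short basic protein, had 1713, 1344 and 1142 TPM in Tfh tumour, against 3216, 3471 and 3380 TPM in Tfh OT-II. Its copy Gm3699 had 2.83, 0 and 0 TPM in Tfh tumour, against 5609, 6420 and 7184 TPM in Tfh OT-II. Together they gave a log2 fold change of -2.82 (limma adjusted p = 0.000336), more than the -1.28 of Rpl41 alone. Gm3699 is 75 bases long, the length of 1 read, so its TPM depends strongly on the correction for length. The sum with Rpl41 carries the same limit. Copies took 13.7% to 15.5% of the summed TPM of members and copies in Tfh tumour, 23.3% to 24.8% in Tfh OT-II, 15.9% to 20.1% in Tfh WT and 15.3% to 16.2% in Th1 WT. In Tfh OT-II, Gm3699 alone averaged 6404 TPM of the 40238.5 TPM of all copies.

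Read against each other, with each library scaled on the members themselves, the members did not all move alike. In Tfh tumour against Tfh OT-II, 11 were higher and 7 lower (31.3% and 2.5% of all genes, limma). This scale sets the members' median near 0, so the typical gene lies above it. The counts were 6 and 3 without OT-II replicate 2 or 3, 7 and 4 without OT-II replicate 1 or tumour replicate 3, 9 and 3 without tumour replicate 2, and 10 and 5 without tumour replicate 1. Among those lower were Rpl23a, Rpl26, Rpl29, Rpl32l, Rpl5 and Rps18. Those higher, such as Rpl10 (1.22 ± 0.23 SE), Rps13 (1.22 ± 0.25 SE) and Rps27 (1.07 ± 0.25 SE), had not passed as deposited. Rps27, a small-subunit zinc-finger protein, had 1271, 1323 and 931 TPM in Tfh tumour, against 966, 993 and 981 TPM in Tfh OT-II. In sums with copies 8 were higher and 10 lower (40.6% and 2.03%), and Rpl10 and Rps13, whose copies held 61.4% and 59.1% of their families in Tfh OT-II, had negative log2 fold changes as deposited (-0.96 and -0.80).

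In Tfh WT against Th1 WT, 15 members were higher and 11 lower relative to the rest (9.07% and 1.75% of all genes, limma). Without WT replicate 2 they were 10 and 4, without WT replicate 3 they were 11 and 5, and without Th1 replicate 3 they were 15 and 19. Besides those above, Rpl22 (1.32 ± 0.20 SE), Rpl26 (1.24 ± 0.21 SE), Rps15a (1.23 ± 0.25 SE), Rpl13a (1.13 ± 0.24 SE), Rpl35 (1.09 ± 0.18 SE) and Rpl23a (1.02 ± 0.22 SE) were higher. Rps2 (-1.18 ± 0.26 SE), Rpl9 (-1.15 ± 0.18 SE), Rpl18 (-1.07 ± 0.22 SE) and Rps6 (-0.93 ± 0.20 SE) were lower. Rps6, the substrate of S6 kinase, had 1339, 931 and 1007 TPM in Tfh WT, against 844, 1087 and 1868 TPM in Th1 WT, and the groups overlapped. Its copies held 59.7% of the family in Tfh WT, against 3.86% in Th1 WT, and the family's log2 fold change as deposited was 1.11 ± 0.33 SE (limma adjusted p = 0.0181), opposite to the member's -0.15. Rps23, at the decoding centre, likewise gave -0.12 alone and 1.50 ± 0.34 SE with copies (limma adjusted p = 0.00384). After median-of-ratios scaling the sums gave 0.04 for Rps6 and 0.43 for Rps23, and neither passed.

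**Figure D4:**
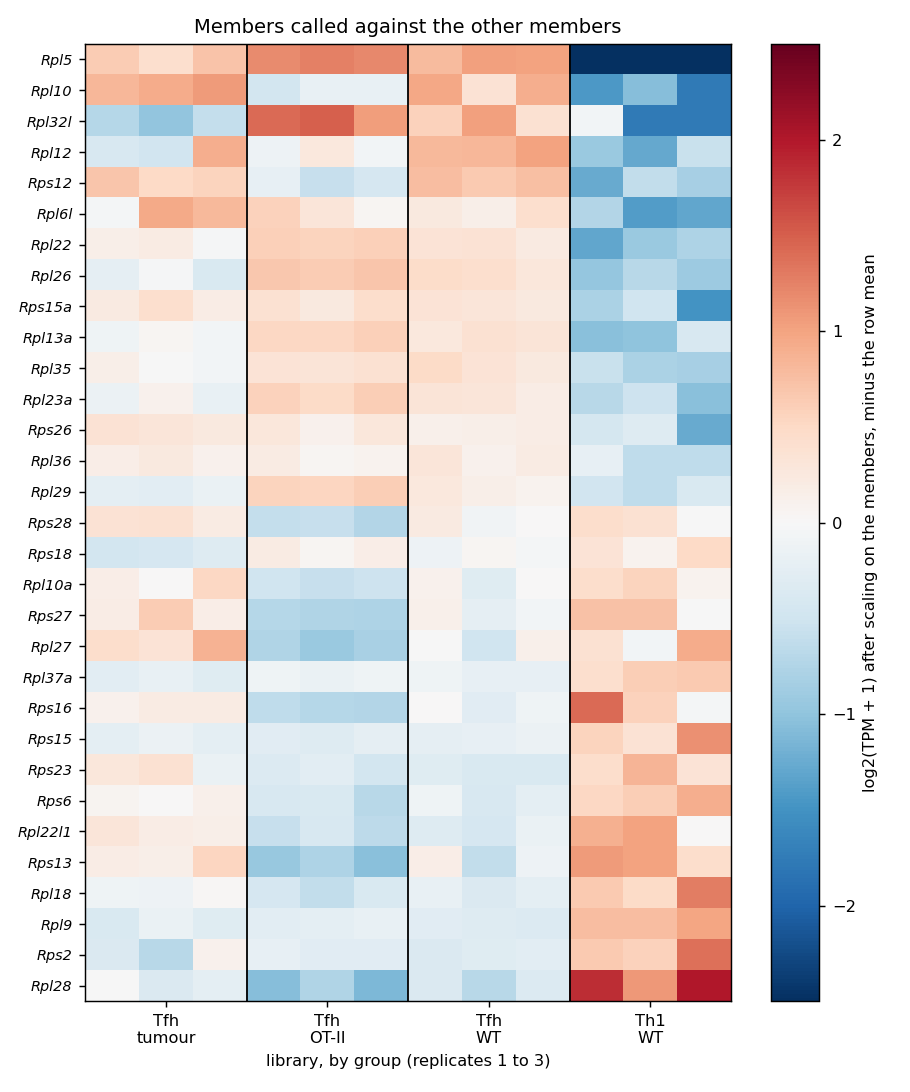
Log2(TPM + 1) after scaling each library on the members, minus the row mean (colour, cut at 2.5 either way), for 31 of the members called against the other members in at least 1 comparison, by library in 4 groups. Rpl5, Rpl10 and Rps12 are low in the 3 Th1 WT libraries and Rpl28 is high there, while Rps27, Rps13 and Rpl27 are low in Tfh OT-II.

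A ratio of 2 paralogues within a library does not change with the scaling of that library. Of 8 listed pairs that differ by a suffix, 7 were tested, since Rpl10l was under 1 TPM in every group. Rpl6l, Rpl32l and Rps12l1, processed pseudogenes in GENCODE, were not among the listed pairs. Of the 7 pairs, 5 differed across the 4 groups (exact permutation test of the F statistic, Benjamini-Hochberg over 7 pairs). The p is the share of 369600 arrangements with an F at least as large as the observed one. Rpl22 and Rpl22l1 differed most. Rpl22 is dispensable in most mouse tissues but needed for αβ T cell development, and its protein represses Rpl22l1. Rpl22 had 1412, 1120 and 931 TPM in Tfh tumour, 2735, 2824 and 2884 in Tfh OT-II, 2517, 2190 and 1911 in Tfh WT and 330, 511 and 797 in Th1 WT. Rpl22l1 stayed between 77.1 and 144 TPM in all 12 libraries. The log2 ratio was 3.65 ± 0.11 in Tfh tumour, 4.89 ± 0.15 in Tfh OT-II, 4.38 ± 0.20 in Tfh WT and 2.12 ± 0.74 in Th1 WT (SD, n = 3 each; exact permutation p = 6.49e-05, the smallest this design allows, adjusted 0.000455), which is 12.6-, 29.7-, 20.8- and 4.35-fold. The libraries of no pair of groups overlapped. With copies added the log2 ratios were 3.52, 4.57, 4.26 and 2.09, with the same adjusted p.

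Rps27 to Rps27l gave the opposite order. Rps27l is a target of p53 whose protein differs from Rps27 at a few residues near the N terminus. The log2 ratio was 3.34 ± 0.43 in Tfh tumour, 2.13 ± 0.03 in Tfh OT-II, 2.80 ± 0.16 in Tfh WT and 3.49 ± 0.36 in Th1 WT (SD, n = 3 each; exact permutation adjusted p = 0.00485). Tfh OT-II lay below every other library, while Tfh tumour overlapped with Th1 WT. Rpl7 to Rpl7l1 was 4.13 ± 0.29 in Tfh tumour, 4.82 ± 0.14 in Tfh OT-II, 4.66 ± 0.09 in Tfh WT and 4.40 ± 0.11 in Th1 WT (SD, n = 3 each; exact permutation adjusted p = 0.00159). Rps4x to Rps4l (0.00761) and Rpl39 to Rpl39l (0.00927) also differed by the exact permutation test, but Rps4l and Rpl39l lay under 5 TPM in every library, where the added 1 TPM sets much of the ratio, and Rps4l is a transcribed processed pseudogene. Rpl3 to Rpl3l and Rpl36a to Rpl36al did not pass (both 0.308). With copies added Rpl36a to Rpl36al passed (0.0249), so 6 pairs differed.

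**Figure D5:**
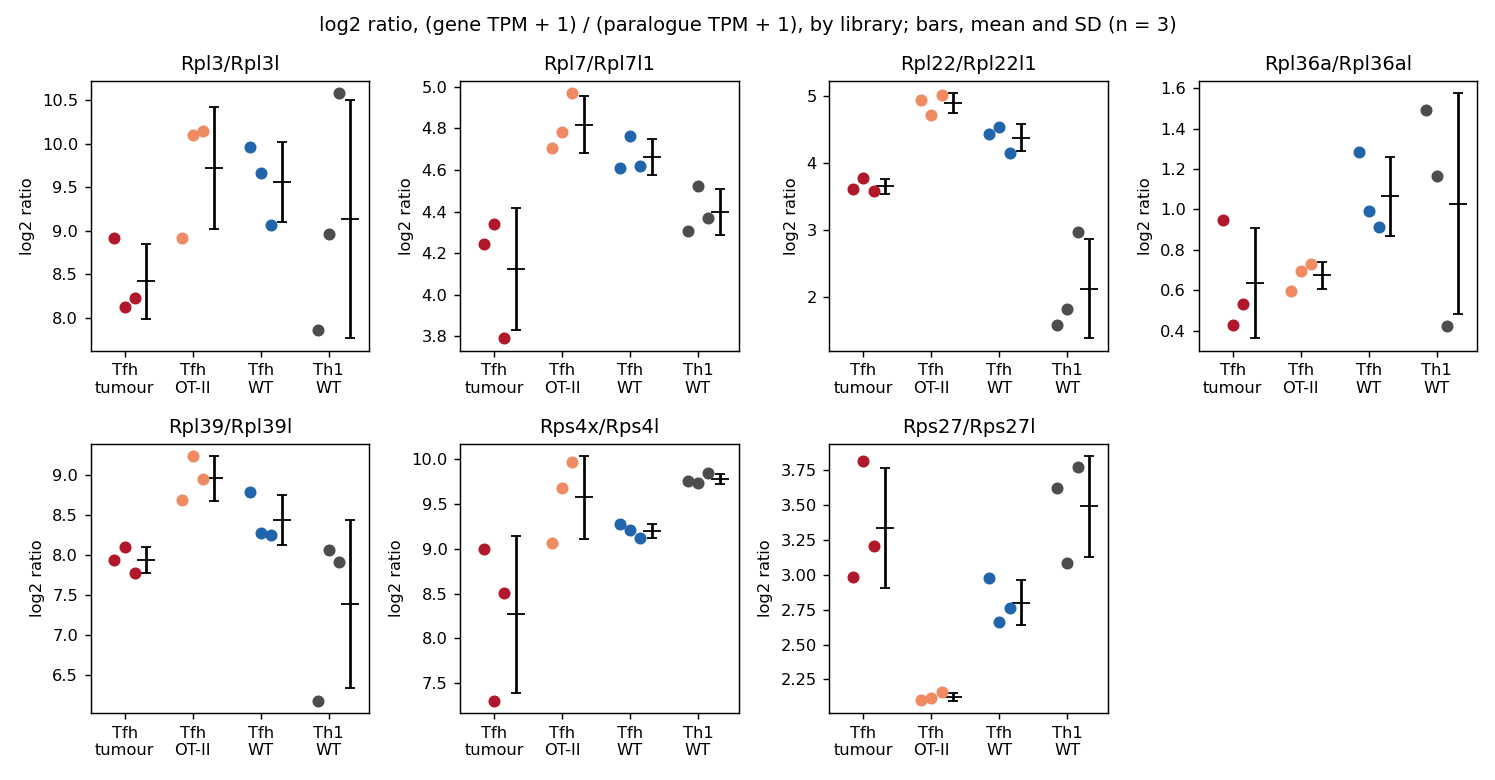
Log2 ratio (y) of a gene's TPM + 1 to its paralogue's TPM + 1 in each library (points), with mean and SD (bars, n = 3), for 7 pairs and 4 groups; y axes differ. Rpl22 to Rpl22l1 is highest in Tfh OT-II (4.89) and lowest in Th1 WT (2.12), and Rps27 to Rps27l is lowest in Tfh OT-II (2.13).

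Features that the rule did not use were set beside the fold changes. In Tfh tumour against Tfh OT-II, members with a pyrimidine tract within 5 bases of the annotated start had a median log2 fold change of -0.83 as deposited (11 of 29 called lower). Members with no tract there had -0.82 (12 of 34). Members with a small nucleolar RNA gene within their span, 29 in GENCODE, had -0.93 (14 of 29 lower), and the other unsuffixed members had -0.88 (21 of 47 lower). In Tfh WT against Th1 WT the snoRNA hosts had a median of 1.00 as deposited and -0.07 scaled, and the other unsuffixed members had 0.55 and -0.52. Such guide RNAs are made from introns, and the snoRNAs themselves were not analysed here. In the same comparison large-subunit and stalk members had 0.86 and -0.21, and small-subunit members had 0.41 and -0.67. No test was made between these classes.

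Genes that work with the ribosome were read from 5 further lists. Of 23 translation factors and other known TOP mRNAs, 8 fell and 0 rose both ways in Tfh tumour against Tfh OT-II (6.87% and 6.76% of all genes), with a median log2 fold change of -0.82 as deposited. Eef1b2, an exchange factor for elongation factor 1, averaged 831 ± 181 TPM in Tfh tumour, against 2334 ± 115 TPM in Tfh OT-II (SD, n = 3 each; log2 fold change -1.51 ± 0.33 SE, limma adjusted p = 0.00781). Ybx1 (-1.29 ± 0.29 SE) and Eef1g (-1.24 ± 0.36 SE) also fell. In Tfh WT against Th1 WT, 2 of the 23 rose both ways, a share near the 9.02% of all genes. Eif4a2, a helicase of the cap complex, averaged 1585 ± 79.2 TPM in Tfh WT, against 266 ± 35.9 TPM in Th1 WT (SD, n = 3 each), and Pabpc1, the poly(A)-binding protein, 2226 ± 266 TPM in Tfh WT, against 464 ± 368 TPM in Th1 WT. Of the 23, 0 passed in Tfh tumour against Tfh WT as deposited (limma; 1 was lower scaled) and 0 in Tfh OT-II against Tfh WT. At an unadjusted p under 0.05 as deposited, 0 of the 23 were higher and 7 lower in the first comparison, against 8.28% and 5.74% of all genes. In the second, 1 was higher and 1 lower, against 7.16% and 6.08% of all genes.

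Few makers and regulators of ribosomes were called both ways in Tfh tumour against Tfh OT-II, where 6.87% of all genes were lower and 6.76% higher. The counts of these lists lay near those shares or under them. Of 39 ribosome assembly factors, 2 fell both ways in Tfh tumour against Tfh OT-II, Gnl3 (194 ± 91.5 TPM in Tfh tumour, against 415 ± 28.8 TPM in Tfh OT-II) and Pes1 (47.5 ± 10.9 TPM, against 103 ± 9.98 TPM). The median of that list was -0.39, beside -0.88 for the ribosomal proteins. Of 14 RNA polymerase I genes 1 fell both ways, Polr1d (-0.82 ± 0.24 SE). Of 19 genes of the mTORC1, LARP1 and Myc list 1 rose, Max, the partner of Myc (1.05 ± 0.22 SE). At an unadjusted p under 0.05 (limma), 0 of the 39 assembly factors were higher and 9 lower, against 15.6% and 13.5% of all genes. For the 14 RNA polymerase I genes these counts were 0 and 3, and for the list of 19 they were 2 and 2. In Tfh WT against Th1 WT the call depended on the scaling for the 39 assembly factors. As deposited, 9 were higher and 0 lower, against 41.1% and 0.511% of all genes. Scaled, 0 were higher and 9 lower, against 9.02% and 5.35% of all genes, and 0 were called both ways. Of the 5 ribosome genes that the symbol rule misses, Rack1 fell both ways in Tfh tumour against Tfh OT-II, at 556 ± 111 TPM in Tfh tumour, against 1066 ± 83.5 TPM in Tfh OT-II (SD, n = 3 each; log2 fold change -0.96 ± 0.30 SE, limma adjusted p = 0.048).

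Members with a suffix were mostly low. Of 11, Rpl36al (435 TPM over all libraries), Rps27l (168), Rpl22l1 (102), Rpl7l1 (54.0) and Rps12l1 (1305) were above 10 TPM on average. Rpl3l, a form known from striated muscle, Rpl10l, a form known from testis, Rpl39l, Rpl32l, Rpl6l and Rps4l averaged 0.564 to 4.37 TPM. Rpl6l, a processed pseudogene, averaged 4.59 ± 0.59 TPM in Tfh WT, against 0.532 ± 0.22 TPM in Th1 WT (SD, n = 3 each; 1.87 ± 0.27 SE on the log2(TPM + 1) scale, limma adjusted p = 0.000208, scaled 0.00347). Rpl32l had 10.7, 12.1 and 8.47 TPM in Tfh OT-II and 1.34, 0 and 0 TPM in Th1 WT. In all, 5 members were listed at 0 in at least 1 library, and each of those libraries was a Th1 WT library.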

How the data were processed

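RNA was sequenced from 12 libraries. The deposited values are TPM, 1 per gene symbol and library, made by the authors with kallisto on mm10, per the submitters' processing notes; version and annotation are not given in the sources used here. Per the labels' protocols, total RNA was depleted of rRNA, kept its strand and was read as pairs of 75 bases. No counts were used, so no interval or floor is given; an exact 0 is only listed as 0. The 23308 symbols that averaged 1 TPM or more somewhere among the 4 groups were tested with limma 3.58.1 (R 4.3.3, trend) on log2(TPM + 1), 1 mean per group over all libraries, with Benjamini-Hochberg adjustment over all genes tested at 0.05; 1 member, Rpl10l, was under the filter. Fold changes on log2(TPM + 1) understate the change of low genes. Each fit was repeated after median-of-ratios scaling (16404 genes), after scaling on 82 members and with each member summed with its copies. Trimmed-mean scaling was an alternative.

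Named members were, per comparison, the 5 highest and 5 lowest called both ways; the paralogue pairs; members called relative to the other members and in another fit; the 4 most abundant; members under 1 TPM; and Rpl5, Rpl11, Rplp0, Rplp1, Rplp2, Rpsa and Rps6. Members of other lists were named up to 3 each way. The members and lists were chosen with earlier results of these data known. Rpl27, Rpl41, Rps12l1 and the copies, and genes in counts of 5 or fewer, were named after their values were seen. Positions are those of GRCm38 (mm10) in GENCODE M21; promoter sequences are from RefSeq (GRCm38.p6). The statistics were tested on simulated data. Some genes are counted but not reported here by name.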

Additional observations from a re-analysis of the deposited data

How the results depend on the processing

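The member median in Tfh tumour against either in vitro Tfh group was negative under every alternative run that did not scale on the members or the summed members. Those 2 scalings set the median near 0, so its sign there says nothing about direction. In Tfh tumour against Tfh WT, 3 lower calls became 1 with scaling on the members, 1 with standard protein-coding names, 0 with a pseudocount of 0.1, 1 with no filter, 10 with a filter at 5 TPM and 0 with only those 2 groups; leaving out 1 library gave 0 to 6, or 0 to 9 with median-of-ratios scaling, and the medians were -0.03 on the members and -0.01 on the summed members. In Tfh OT-II against Tfh WT, only those 2 groups gave 1 higher and 3 lower, scaling on the members gave 1 lower, and leaving out 1 library gave 0, with medians of -0.07 to 0.18. In Tfh tumour against Tfh OT-II, 0 higher became 11 on the members, 8 on the summed members and 1 with standard names. The 37 lower became 24 with trimmed-mean scaling, 7 on the members, 6 with standard names, 13 with no filter, 10 on the summed members and 8 to 32 with 1 library left out (6 to 41 scaled). Medians there were -0.05, 0.02 and -0.53 on the members, the summed members and standard names.

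In Tfh WT against Th1 WT, 41 higher became 6 with median-of-ratios, trimmed-mean or standard-name values, 15 on the members, 26 with only those 2 groups, 1 for sums scaled, 13 on the summed members and 28 to 57 with 1 library left out (4 to 7 scaled). The 1 lower became 13 with median-of-ratios or trimmed-mean scaling, 11 on the members, 8 with standard names, 0 for sums, 8 for sums scaled and 10 on the summed members, and 2 to 13 scaled with 1 library left out. Medians were -0.28, -0.29, 0.01, -0.13, -0.26 and -0.01 with median-of-ratios, trimmed-mean, members, standard names, sums scaled and summed members. Fold changes that reversed there were Rpl10 (-0.36 for sums scaled, -0.11 on the summed members), Rpl28 (0.055 for sums), Rps12 (-0.37 and -0.12), Rps23 (1.50 for sums, 0.68 on the summed members) and Rps6 (1.11 for sums). Rpl37a (0.05 as deposited) gave -1.03 with median-of-ratios and trimmed-mean scaling, -0.73 on the members and -0.69 on the summed members. Without WT or Th1 replicate 1 it gave -1.18 and -1.24 scaled. The cause was not tested.

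Leaving out 1 library gave medians of -1.11 to -0.69 in Tfh tumour against Tfh WT, -1.16 to -0.79 against Tfh OT-II and -0.39 to 0.97 in Tfh WT against Th1 WT. Shares of TPM were 5.98% to 6.87% in Tfh tumour, 12.6% to 13.1% in Tfh OT-II, 10.9% to 12.0% in Tfh WT and 5.16% to 7.15% in Th1 WT. Of standard names they were 11.3%, 17.0%, 17.8% and 18.3%, and with copies 7.69%, 16.9% and 14.1% in the Tfh groups. Of 7 paralogue pairs 4 to 6 differed. Replicate numbers did not pair the libraries (correlations of -0.386 to 0.115 between same-numbered libraries). With the replicate block, lower calls in Tfh tumour against Tfh OT-II were 16, or 10 scaled. With the block scaled, Tfh WT against Th1 WT gave 6 higher and 8 lower, with a median of -0.28.

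Depth is unknown, so low members carry no counting interval. Sums with copies, and scaled fits with a library left out or the block, were chosen after the data were seen.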
